A study of Mus musculus with 6 samples.

Results

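The adenylyl cyclases encoded by Adcy1 to Adcy9 are the membrane enzymes that make cyclic AMP (cAMP). Their rows were found by gene symbol in the FPKM table of every library: 9 of 23179 gene rows. The libraries were made from total RNA of pancreatic islets of male C57BL/6J mice aged 10 to 14 weeks that were either wildtype (WT) or Ffar3-/- (KO). Ffar3 encodes a receptor of short-chain fatty acids. Each group had 3 libraries, described as biological replicates, each of islets pooled from 2 pancreata; how the allele was made is not given in the sources used here.

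Adenylyl cyclases convert ATP to cAMP and sit where opposing receptor signals meet. The G protein subunit Gs stimulates all members, whereas receptors that couple to Gi, Ffar3 among them, restrain several. In beta cells, cAMP raised by incretin hormones amplifies glucose-stimulated insulin release through protein kinase A and Epac. Members differ in what else controls them. Adcy1, Adcy3 and Adcy8 are the calcium and calmodulin group, Adcy5 and Adcy6 are inhibited by Gi and by calcium, Adcy2, Adcy4 and Adcy7 respond to G protein beta-gamma subunits, and Adcy9 is the member that forskolin activates least.

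The question was which of these genes the islet libraries contained and whether their levels differed between KO and WT. FPKM is a fragment count scaled by transcript length and by a factor of each library, so levels of different genes can be set side by side. The transcripts of 2 members made up most of the family in both groups. Adcy6 was the highest and Adcy9 the second, and together they held 87.5% to 89.3% of the summed FPKM of the family in WT and 83.4% to 88.7% in KO. Adcy9 rose modestly in KO by the test used here, a call that ended under 12 of 19 alternatives. Adcy6 was lower in each KO library than in any WT library without passing the test. The summed FPKM of the 9 genes averaged 31.9 ± 1.94 for WT libraries and 33.0 ± 1.0 for KO libraries (SD, n = 3 in each, no test made).

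**Figure D1:**
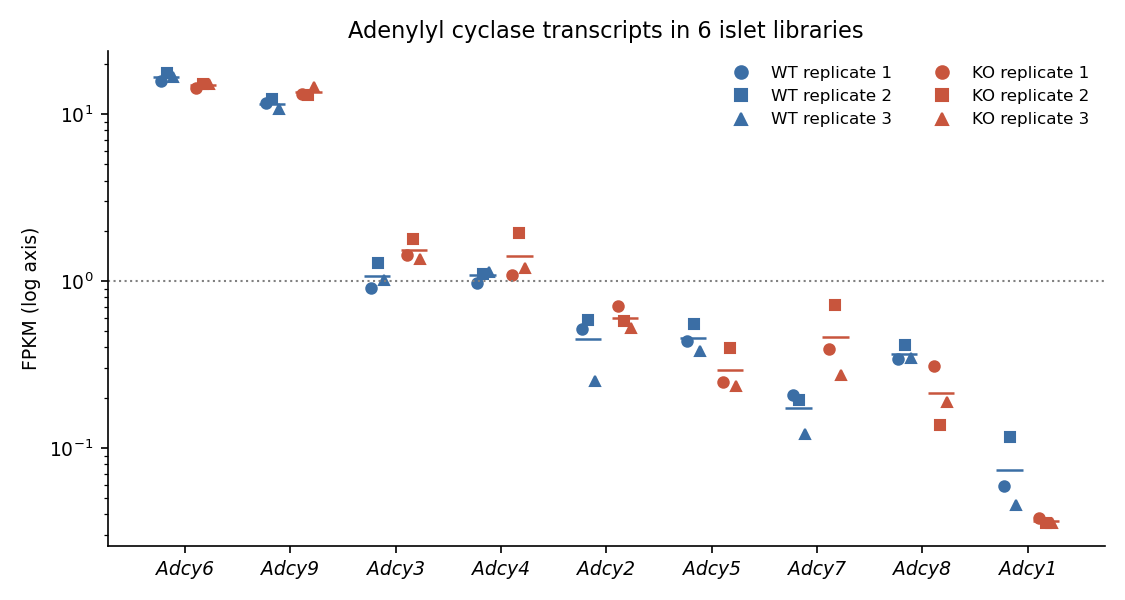
Deposited FPKM (log axis) of each adenylyl cyclase gene, in order of mean level, in the 3 WT (blue) and 3 KO (red) libraries; symbols mark replicate numbers, short lines the group means, and the dotted line 1 FPKM. Adcy6 and Adcy9 stood at 10.8 FPKM or above, and the other 7 genes at or below 1.94 FPKM.

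Across all genes, limma was run on log2(FPKM + 1) for the 11669 rows with a mean of at least 1 FPKM. It called 4657 rows (39.9%) at an adjusted p under 0.05, 2368 higher in KO (20.3%) and 2289 lower. With libraries rescaled to equal sums outside the acinar gene list, 645 were higher and 1349 lower, and the median difference of all tested genes shifted from -0.01 to -0.17. Ffar3 was at 4.69, 5.26 and 6.68 FPKM in WT and listed at 0, 0 and 0.105 in KO, as labelled. Digestive enzyme transcripts of acinar cells took 5.93% to 8.84% of the FPKM sum of WT libraries. The KO libraries had 5.67% (replicate 1), 34.0% (replicate 2) and 48.0% (replicate 3). Lymphoid markers were high in KO replicates 1 and 2. Islet hormone genes such as Iapp and Gcg were abundant, but the insulin gene Ins2 was listed at 0 throughout and Ins1 was above 0 in KO replicates 2 and 3 alone. Total depth is unknown. Relative depth was estimated from the commonest ratio among values under 0.06 FPKM, an estimate that was not tested. Relative to WT replicate 1 it put the fragments behind 1 FPKM at 59.6% in KO replicate 3 and at 89.4% in KO replicate 2, so low values of KO replicate 3 rest on the fewest fragments by this estimate.

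Of the 9 adenylyl cyclases, 4 passed the filter on low values and were tested (Adcy3, Adcy4, Adcy6 and Adcy9). Of these, 1 was called higher in KO and 0 lower, beside 20.3% and 19.6% over all tested rows. A count of 1 in 4 is near that background. At an unadjusted p under 0.05, limma gave 2 higher (Adcy3 and Adcy9) and 1 lower (Adcy6), a threshold that 25.4% (higher) and 26.0% (lower) of all tested rows passed. Their median log2 difference was 0.21, against -0.01 for all tested genes. The other 5 (Adcy1, Adcy2, Adcy5, Adcy7 and Adcy8) had means under 1 FPKM and are described by their values.

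Adcy9 was at 11.6, 12.3 and 10.8 FPKM in WT replicates 1, 2 and 3 and at 13.3, 13.0 and 14.5 FPKM in KO. All 3 KO libraries lay above the highest WT library. The group means were 11.5 ± 0.749 and 13.6 ± 0.817 FPKM (SD, n = 3 per group), a KO level 1.18 times that of WT. On the log2(FPKM + 1) scale the difference was 0.22 (SE 0.07, 95% interval 0.05 to 0.39, limma adjusted p = 0.043). Adcy9 encodes a widely expressed cyclase and lies on the minus strand of chromosome 16 at 4287529 to 4420498 (GRCm38), with no exon base shared with another annotated gene. Its call lay close to the threshold. With a single library left out, the call was kept only without KO replicate 1. The limma adjusted p was 0.12, 0.053 and 0.15 without WT replicates 1, 2 and 3. It was 0.057 without KO replicate 2, 0.1 without KO replicate 3 and 0.047 without KO replicate 1. In the fits that lost the call, the log2 difference stayed between 0.17 and 0.26. Those fits also called fewer of all tested rows, 21.3% to 35.3% against 39.9% with all libraries. Against WT, KO replicate 1 alone, the KO library with low acinar transcripts, gave 0.19 (adjusted p = 0.16). A fit that held the mean acinar level as a covariate also gave 0.19 (adjusted p = 0.15). Equal sums outside the acinar list brought it to 0.05, or 0.22 relative to the shifted median of all genes.

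Adcy6 was at 15.8, 17.6 and 16.7 FPKM in WT and at 14.4, 15.1 and 15.2 FPKM in KO. The groups did not overlap, with all KO libraries below the lowest WT library. The means were 16.7 ± 0.903 and 14.9 ± 0.452 FPKM (SD, n = 3 per group), and the log2 difference was -0.15 (SE 0.06, 95% interval -0.29 to -0.01, limma adjusted p = 0.08), which did not pass the threshold. Adcy6 is inhibited by Gi and by calcium and is a main cyclase of many excitable and secretory cells. It passed under 1 alternative, quantile normalization (log2 difference -0.18, adjusted p = 0.043). The gene lies on the minus strand of chromosome 15 at 98589973 to 98610076, where 605 of its 6782 exon bases also belong to an opposite-strand predicted gene, Gm29331. Whether the authors counted by strand is not given in the sources used here.

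Next, the make-up of the family within each library was compared. Of the 9 shares, 3 were higher (Adcy3, Adcy7 and Adcy9) and 4 lower (Adcy1, Adcy5, Adcy6 and Adcy8) in all KO libraries, and the shares of Adcy2 and Adcy4 overlapped. All of the former but Adcy5 also did not overlap in FPKM, so the count largely repeats those values. Shares have no background over all genes. In FPKM, the groups did not overlap in 56.3% of tested rows and 22.1% of rows above 0 with a mean under 1 FPKM. Shares of a library add up to the whole, so they are not independent of each other. Adcy6 held 51.2%, 51.5% and 54.2% of the summed FPKM of the family in WT and 45.1%, 44.8% and 45.4% in KO. Its share was thus 52.3% ± 1.64 against 45.1% ± 0.285 (SD, n = 3 per group), a difference of -7.22 percentage points (exact two-sided permutation p = 0.1, the smallest possible with 3 against 3). Adcy9 held 37.6%, 35.9% and 35.0% in WT and 41.6%, 38.6% and 43.3% in KO, a difference of 4.98 percentage points (exact permutation p = 0.1). Shares are taken within a library, so a rescaling of the library does not change them. The ratio of Adcy9 to Adcy6, chosen after its values were seen, was 0.733, 0.697 and 0.646 in WT and 0.923, 0.86 and 0.953 in KO. That these ratios do not overlap follows from the separate values of both genes, and Adcy6 remained the higher gene in each library.

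**Figure D2:**
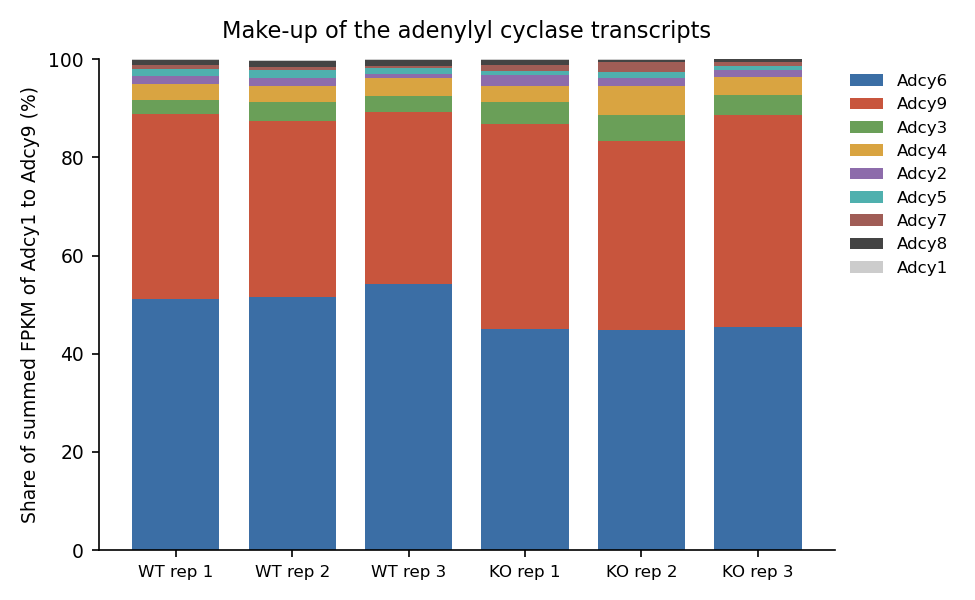
Share of each gene in the summed FPKM of Adcy1 to Adcy9, in percent, as 1 stacked bar per library that starts at 0. Adcy6 (blue) took 51.2% to 54.2% in WT and 44.8% to 45.4% in KO, and Adcy9 (red) 35.0% to 37.6% in WT and 38.6% to 43.3% in KO.

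In the calcium and calmodulin group, Adcy3 was the only tested gene. Adcy3, known for its role in olfactory neurons and primary cilia, was at 0.907, 1.29 and 1.01 FPKM in WT and at 1.44, 1.79 and 1.35 FPKM in KO. All KO libraries lay above WT, by a narrow gap between 1.29 and 1.35 FPKM. The log2 difference of 0.29 (SE 0.12, limma adjusted p = 0.093) did not pass, and it did not pass under any of 18 alternatives (adjusted p from 0.062 to 0.4). Adcy3 lies on the plus strand of chromosome 12 at 4133103 to 4213525 and shares 1380 of its 6246 exon bases with Cenpo on the opposite strand. Cenpo was at 1.28, 1.14 and 1.21 FPKM in WT and 0.94, 0.805 and 0.774 in KO, lower where Adcy3 was higher; reads of the shared bases cannot be told apart unless strand was used in counting.

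Adcy8, a cyclase of neurons and beta cells that calcium and calmodulin stimulate, was at 0.341, 0.416 and 0.346 FPKM in WT and at 0.311, 0.137 and 0.188 FPKM in KO. All KO libraries were below WT, KO replicate 1 by little and KO replicates 2 and 3 by more. In the fit with no filter on low values, its log2 difference was -0.18 (limma adjusted p = 0.078). The summed level of 7 alpha cell markers, led by Gcg, was 19900 to 24100 FPKM in WT. KO replicates 1, 2 and 3 had 13600, 9310 and 7240 FPKM. Of these genes, 7 of 7 were lower in all KO libraries, beside 28.5% of all tested rows. Of 10 beta cell markers, 5 were lower in all KO libraries and 0 higher, beside 28.5% and 27.8% of all tested rows. Mafa, at 197 to 213 FPKM in WT and 101, 63.4 and 44.7 in KO, fell furthest. Pdx1, G6pc2 and Slc30a8 overlapped, with KO means 0.902, 1.06 and 1.0 times those of WT. The beta cell sum was 37200 to 38900 FPKM in WT and 35800, 72900 and 81200 in KO, where Ins1 was at 0, 43700 and 48300 FPKM. The part of these markers in the Adcy8 values was not tested. In such bulk samples, fewer cells of a type and less RNA per cell cannot be told apart. Adcy1, mainly a neuronal gene, was the lowest member, at 0.0595, 0.117 and 0.0457 FPKM in WT and 0.0381, 0.0354 and 0.0355 in KO. These groups did not overlap, at the lowest levels of the family.

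Adcy5, the partner of Adcy6 in the Gi- and calcium-inhibited group, was 0.457 ± 0.0854 FPKM in WT and 0.293 ± 0.0907 in KO (SD, n = 3 per group). Its libraries overlapped, with KO replicate 2 at 0.398 above WT replicate 3 at 0.383 FPKM. In humans, variants at this gene are associated with type 2 diabetes. With no filter on low values its log2 difference was -0.17 (limma adjusted p = 0.11). Adcy6 was thus the prevailing gene of this group, by 15.8 against 0.375 FPKM over the 6 libraries.

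Among the genes stimulated by beta-gamma subunits, Adcy7 differed most in proportion. Adcy7, a cyclase prominent in blood cells, was at 0.208, 0.193 and 0.122 FPKM in WT and at 0.393, 0.714 and 0.275 FPKM in KO. All KO libraries lay above WT, with KO replicate 2 far above the others, and the KO mean was 2.64 times the WT mean. With no filter on low values the log2 difference was 0.3 (limma adjusted p = 0.09). The summed level of 10 lymphoid markers was 6.98 to 7.74 FPKM in WT; KO replicates 1, 2 and 3 had 45.6, 83.1 and 10.2 FPKM, the same order as Adcy7 among the KO libraries. Of these markers, 9 of 10 were higher in all KO libraries, beside 27.8% of all tested rows and 11.7% of rows above 0 with a mean under 1 FPKM. Ms4a1, Cd3d and Cd3e were among those listed at 0 in every WT library. The 9 macrophage markers summed to 82.8 to 90.7 FPKM in WT and to 109, 176 and 67.4 in KO, again in the order of Adcy7 among the KO libraries. Within WT, neither sum followed the order of Adcy7. Among the macrophage markers Lyz2 changed most, at 11.5, 9.51 and 9.92 FPKM in WT and 32.9, 94.8 and 10.3 in KO. Of the 9 macrophage markers, 2 were above WT in all KO libraries (Cd68 and Itgam) and 2 below (Emr1 and C1qa). These counts are near the 27.8% and 28.5% of all tested rows. The part of either cell type in the Adcy7 values was not tested.

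**Figure D3:**
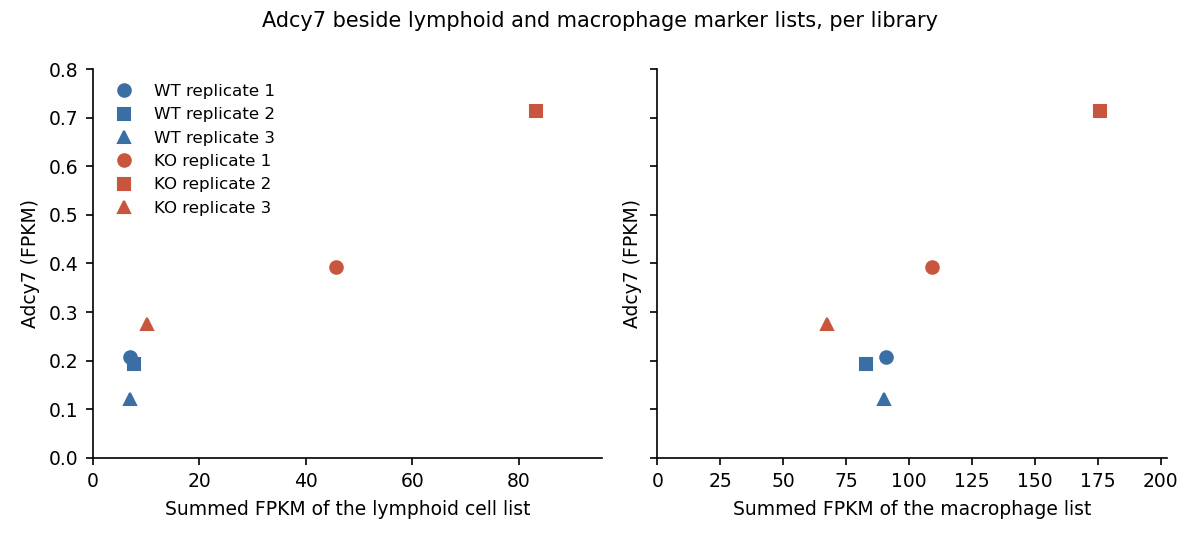
Adcy7 in FPKM (vertical axis) against the summed FPKM of the lymphoid list (left) and the macrophage list (right), 1 point per library, WT blue and KO red. KO replicate 2 was highest on all 3 measures, and KO replicate 3, at 0.275 FPKM of Adcy7, lay close to WT on the lymphoid axis.

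Adcy4, known from blood vessels among other tissues, was at 0.978, 1.11 and 1.14 FPKM in WT and 1.08, 1.94 and 1.2 FPKM in KO. The groups overlapped, and only KO replicate 2 stood apart. The log2 difference of 0.2 (SE 0.15, 95% interval -0.16 to 0.55, limma adjusted p = 0.32) did not pass, and it was 0.04 without KO replicate 2. The summed level of 10 endothelial markers was 153 to 195 FPKM in WT and 148, 168 and 142 in KO, so the sum of KO replicate 2 lay within the WT range. Single markers went both ways. Plvap, the highest, was at 65.1 FPKM in KO replicate 2, within WT. Pecam1 (16.0), Cdh5 (12.7) and Egfl7 (12.4 FPKM) lay above every WT library there. Kdr (11.5), Emcn (22.5) and Tek (1.35 FPKM) lay below every WT library there. The part of these markers in the Adcy4 values was not tested. Adcy2, a gene best known from the brain, was at 0.513, 0.585 and 0.252 FPKM in WT and 0.707, 0.58 and 0.523 in KO, with overlapping groups.

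By their means over the 6 libraries the genes ranked Adcy6, Adcy9, Adcy3, Adcy4, Adcy2, Adcy5, Adcy7, Adcy8 and Adcy1. Adcy6 and Adcy9 did not overlap in WT, while in KO the highest Adcy9 value (14.5 FPKM) reached past the lowest Adcy6 value (14.4 FPKM). Adcy3 and Adcy4 overlapped in both groups, as did Adcy2 with Adcy5 in WT and Adcy5 with Adcy8 in both. Adcy1 lay below all other members in each library. Of the 9 genes, 3 lay higher in all KO libraries (Adcy3, Adcy7, Adcy9) and 3 lower (Adcy1, Adcy6, Adcy8). Among the 4 tested genes these were 2 higher and 1 lower, beside 27.8% and 28.5% of all tested rows (56.3% together). Among the 5 others they were 1 higher and 2 lower, beside 11.7% and 10.4% (22.1% together) of the 6065 rows above 0 with a mean under 1 FPKM. The soluble cyclase gene Adcy10, which bicarbonate activates and which is not one of the membrane enzymes, was listed at 0 in 4 libraries and at 0.00686 and 0.0132 FPKM in WT replicate 3 and KO replicate 3.

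**Figure D4:**
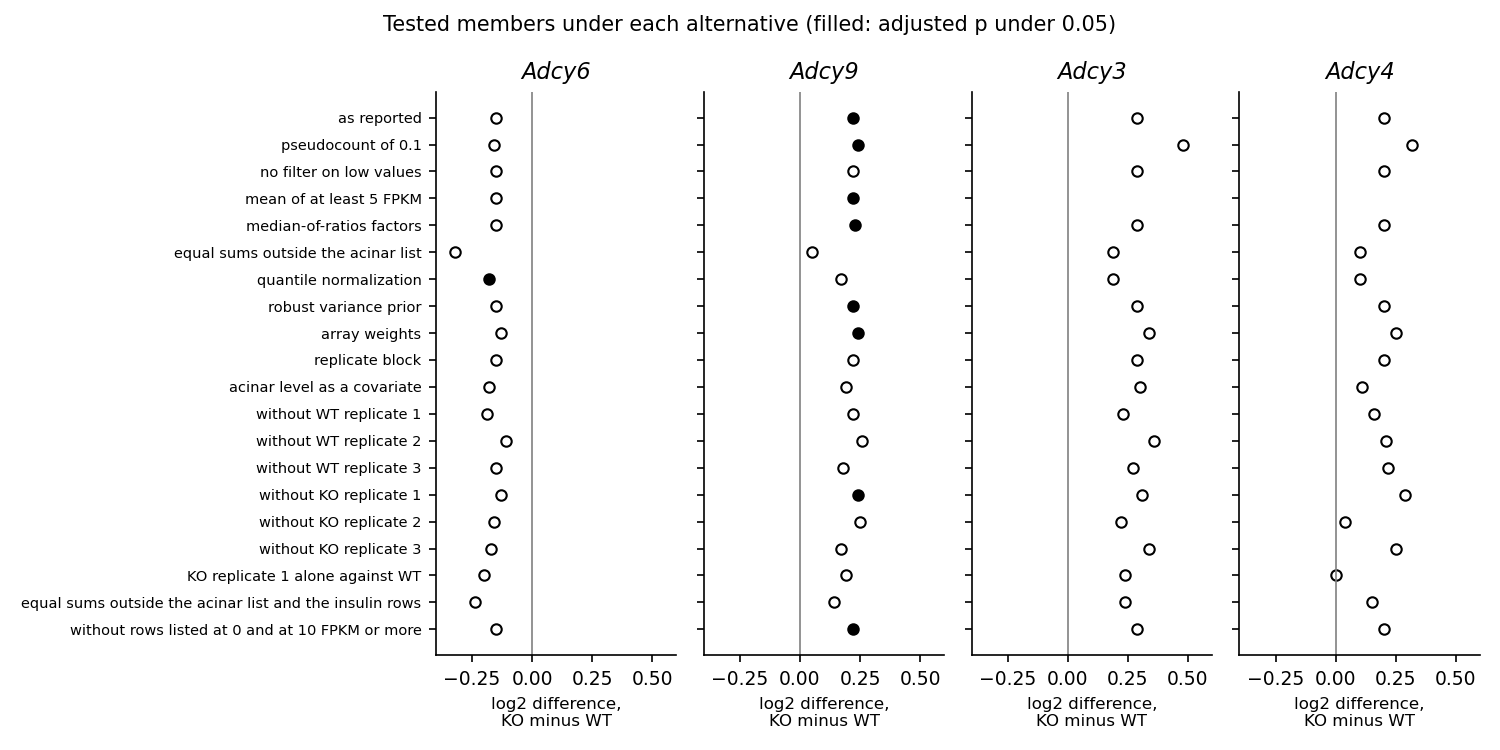
Log2 differences (KO minus WT) of the 4 tested genes under the reported fit and each alternative, named at the left; filled points have an adjusted p under 0.05. Adcy9 stayed above 0 and was filled as reported and under 7 of 19 alternatives, and Adcy6 stayed below 0 and was filled under quantile normalization.

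Promoters are shown for the 3 genes that were higher in all KO libraries, with the core of the cAMP response element (CRE), the site bound by CREB, in capitals. In the RefSeq (GRCm38.p6) promoter table used here, 7 of the 9 genes were matched by symbol to 10 windows (Adcy6 and Adcy8 were not matched). Printed are the 250 bases before the start site, 5′ to 3′ on the gene's strand, of the most upstream window of each gene. The Adcy3 and Adcy7 windows lie inside the GENCODE spans of these genes, which start at 4133103 and 88272403. They are thus not upstream of the first GENCODE start, whereas the Adcy9 window lies outside its gene span.
Adcy9, chr16:4420499-4420748, minus strand: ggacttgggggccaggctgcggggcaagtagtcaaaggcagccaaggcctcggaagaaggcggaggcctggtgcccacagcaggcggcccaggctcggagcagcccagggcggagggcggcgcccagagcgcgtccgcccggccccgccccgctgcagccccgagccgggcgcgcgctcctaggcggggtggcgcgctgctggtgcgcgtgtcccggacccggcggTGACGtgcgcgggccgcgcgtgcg
Adcy3, chr12:4133147-4133396, plus strand: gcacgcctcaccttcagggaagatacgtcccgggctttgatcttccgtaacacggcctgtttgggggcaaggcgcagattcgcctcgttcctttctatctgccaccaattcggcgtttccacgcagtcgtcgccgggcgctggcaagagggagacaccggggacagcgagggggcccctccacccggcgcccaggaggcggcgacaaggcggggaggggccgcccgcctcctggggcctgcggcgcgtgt
Adcy7, chr8:88282742-88282991, plus strand: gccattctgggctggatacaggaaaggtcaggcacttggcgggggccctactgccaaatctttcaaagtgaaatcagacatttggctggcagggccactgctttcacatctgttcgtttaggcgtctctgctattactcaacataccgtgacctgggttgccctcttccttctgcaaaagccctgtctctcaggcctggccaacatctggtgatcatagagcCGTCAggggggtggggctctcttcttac
The core TGACG, searched on both strands, was in 1 window each of Adcy9 and Adcy7, with its first base 24 and 28 bases before the start, and in none of the other 8. It was in 17.9% of all 32536 RefSeq windows of this length. The full element TGACGTCA, which contains the core, was in 0 of the 10 windows and in 1.56% of all. The E-box CACGTG was in the Adcy1 window and in 6.04% of all, and the GC box GGGCGG in 6 of 10 windows and in 33.0% of all. The Adcy9 window held 34 CpG dinucleotides and the Adcy3 window 27, while the Adcy7 window held 5, against a median of 6 over all windows. These are matches of letters and not measured binding.

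The genes around the cyclases were read from the same fit, in lists of receptors, G proteins, regulators, phosphodiesterases and effectors. Of 75 tested, 14 rose and 20 fell, beside 20.3% and 19.6% of all tested rows. Together 45.3% were called, beside 39.9% of all tested rows, with a median log2 difference of -0.06. Receptors were the lists with the most falls. Of 10 tested receptors that couple to Gs, 5 fell and 1 rose (60.0% called, beside 19.6% lower and 20.3% higher over all tested rows). Among them the incretin receptor Glp1r fell by 0.61 on the log2 scale (limma adjusted p = 0.0014) and Gpr119, a receptor of lipid amides, by 0.89 (adjusted p = 0.00084). Of 11 tested receptors that couple to Gi, 5 fell and 1 rose, the targeted Ffar3 included (54.5% called, beside the same shares). Ffar2, which also binds short-chain fatty acids, lies near Ffar3 in the genome and fell by 0.86 (adjusted p = 0.00064).

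Among G protein alpha subunits, Gnas, which encodes the Gs subunit that activates the cyclases, was at 772, 794 and 790 FPKM in WT and 718, 618 and 623 in KO. All KO libraries were below WT, but the log2 difference of -0.27 did not pass (limma adjusted p = 0.079); it passed without KO replicate 1 (-0.34, adjusted p = 0.012), with array weights (-0.29, adjusted p = 0.037) and with a robust variance prior (-0.27, adjusted p = 0.046). Of 5 tested subunits of the inhibitory class, 2 rose and 2 fell, beside 20.3% and 19.6% of all tested rows. Gnaz rose by a log2 difference of 0.6 (adjusted p = 0.00096) and Gnai3 by 0.51 (adjusted p = 0.0022). Of 16 tested regulators and scaffolds, 5 rose and 1 fell (37.5% called, near the 39.9% of all tested rows). Akap11, an anchor of protein kinase A, was at 15.2, 16.3 and 15.8 FPKM in WT and 24.5, 26.4 and 28.5 in KO (log2 difference 0.71, adjusted p = 0.00082). Cap1, an actin-regulating protein named for its association with a yeast cyclase, was at 53.7, 57.4 and 52.1 FPKM in WT and 77.6, 72.9 and 66.4 in KO (0.4, adjusted p = 0.007). The KO libraries were above WT for both genes. Ric8b, a chaperone of Gs-class subunits, and Rgs2, a regulator of G protein signalling, named after their values were seen, rose by 0.56 and 0.57 (adjusted p = 0.0073 and 0.011). The calls of Gnaz, Gnai3, Cap1, Ric8b and Rgs2 ended with equal sums outside the acinar list, where their differences relative to the median of all genes were 0.59, 0.5, 0.39, 0.56 and 0.57.

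Downstream, 4 of 11 tested phosphodiesterases that degrade cAMP fell and 1 rose (45.5% called, near the 39.9% of all tested rows). Pde10a fell by 1.06 on the log2 scale (limma adjusted p = 0.00093), and the calcium-dependent Pde1c went from 6.4 ± 0.326 to 4.33 ± 0.508 FPKM (SD, n = 3 per group; adjusted p = 0.0066). The exception that rose was Pde2a, named after its values were seen. It was at 1.3, 0.994 and 1.26 FPKM in WT and 2.39, 6.6 and 5.57 in KO. Values were highest in the libraries with high acinar transcripts, but KO replicate 1, low in these, also lay above WT. The log2 difference was 1.34 (limma adjusted p = 0.011), and 0.64 for KO replicate 1 alone against WT. A fit that adjusted for mean acinar level gave 0.84 (limma adjusted p = 0.015). The source of the Pde2a rise was not tested. Of 16 tested effectors, 3 rose and 3 fell (37.5% called, near the 39.9% of all tested rows). Prkar2b, a regulatory subunit of protein kinase A, was at 20.4, 21.1 and 20.1 FPKM in WT and 17.3, 13.2 and 13.5 in KO (log2 difference -0.47, adjusted p = 0.012). Crtc3, a coactivator of CREB, was at 7.16, 7.16 and 6.98 FPKM in WT and 8.46, 8.73 and 8.49 in KO (0.24, adjusted p = 0.014). The Crtc3 call was lost when WT replicate 1 or 3 was left out (log2 differences 0.24 and 0.23, adjusted p = 0.054 and 0.065), for KO replicate 1 alone (0.22, adjusted p = 0.078) and with equal sums outside the acinar list (0.08, or 0.25 relative to the median of all genes, adjusted p = 0.7). The log2 differences of Adcy6 (-0.15) and Adcy9 (0.22) were smaller in size than those of all these named genes.

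**Figure D5:**
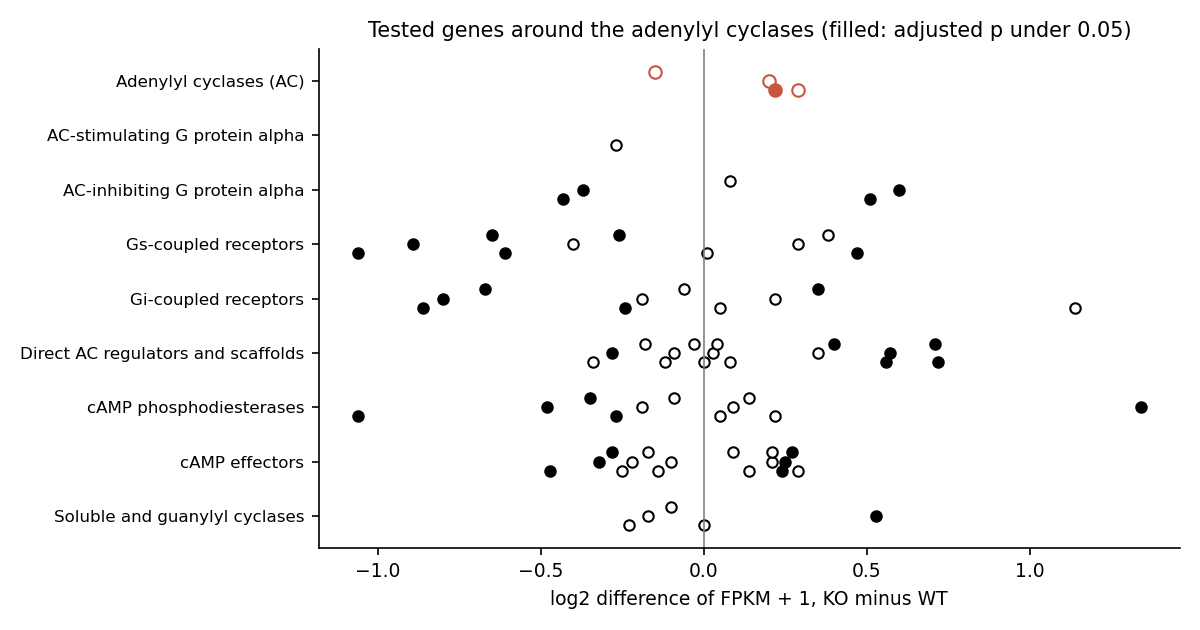
Log2 differences of FPKM + 1 (KO minus WT) of the tested adenylyl cyclases (red, top) and of the tested genes of each surrounding list (black), 1 point per gene, filled where the adjusted p was under 0.05; Ffar3 is left out of the plot. The 4 cyclases lay between -0.15 and 0.29, whereas listed genes reached from -1.06 to 1.34.

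The genes whose profiles over the 6 libraries were most like those of the main cyclases were sought by the smallest Euclidean distance between mean-centred log2(FPKM + 1) values, as a description. For Adcy9 these were Fnip1, Akirin2 and Faf2, at distances of 0.0553, 0.0564 and 0.0634. Fnip1 was at 14.7, 16.0 and 14.1 FPKM in WT and 17.7, 16.9 and 19.3 in KO, the same order of libraries as Adcy9 within KO. For Adcy6 they were Phip, Rnpep and Mrps5, at 0.0398, 0.045 and 0.0479. Phip was at 7.0, 7.96 and 7.52 FPKM in WT and 6.28, 6.52 and 6.67 in KO, each KO library below WT as for Adcy6.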

How the data were processed

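Islet RNA was sequenced in 6 libraries, 3 wild type and 3 Ffar3 knockout, grouped by their titles. The tools were TopHat2 (2.0.8b) and Cuffdiff (2.1.1) on mm10, per the submitters' processing notes. The authors' choice of annotation, strand setting and scaling is not given in the sources used here. Files do not name the unit. The authors' deposited numbers were read as FPKM, which Cuffdiff writes. Their column sums differ between libraries, from 416934.7 in KO replicate 1 to 1056344.2 in KO replicate 3. Median-of-ratios factors lay between 0.995 (KO replicate 3) and 1.005 (WT replicate 3). The deposited values thus already stood near a median-of-ratios scale, which the equal-sum alternatives replace.

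Values were used as deposited. Rows with a mean of at least 1 FPKM were tested on log2(FPKM + 1) with limma 3.58.1 in R 4.3.3 (trended eBayes, two-sided test, group as sole term), with Benjamini-Hochberg adjustment over all 11669 tested rows and a threshold of 0.05. Intervals are 95% intervals of that fit. The fit was tested on simulated data. Single shares and ratios were compared by exact two-sided permutation, whose smallest p is 0.1 here. Gene positions came from GENCODE M21 (GRCm38, the assembly mm10 denotes) and promoter sequences from RefSeq (GRCm38.p6). Named genes were all members, and per list the 2 tested genes of smallest p, or of highest mean where none passed. Adgre1 and Emr1, a newer and an older symbol of the same gene, counted once in the macrophage list. The members and gene lists were chosen with earlier results of these data known. Alternatives were other pseudocounts, filters, scalings, variance priors, weights, covariates and left-out libraries; equal sums without insulin rows was added after seeing the data.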

Additional observations from a re-analysis of the deposited data

How the results depend on the processing

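The count of 4657 called genes became 1994 when sums outside the acinar list were made equal, 2465 when insulin rows were left out of those sums too, 3004 with the acinar level as a covariate and 3041 in KO replicate 1 alone against WT. It lay between 2481 (without WT replicate 1) and 5727 (without KO replicate 1) when single libraries were left out. The count of 1 adenylyl cyclase called higher, Adcy9, became 0 under both equal-sum scalings, quantile normalization, no filter on low values, the acinar covariate and KO replicate 1 alone, and lay between 0 and 1 when single libraries were left out. The adjusted p of Adcy9 ranged from 0.038 to 0.8 over its alternatives. The count of 0 called lower became 1 (Adcy6) with quantile normalization. The count of 34 called pathway genes became 18 and 21 under the equal-sum scalings. The cause of these changes was not tested. Of 337 values of 18 surrounding genes under the alternatives, 318 kept their side of the threshold, 14 lost the call, 5 gained it and 0 reversed. Most of these genes, Ffar3 included, were named for the smallest p of their list, which favours keeping the call. The tally therefore does not extend to the other listed genes. The shares of Adcy6 and Adcy9 kept their direction without any single library, which was bound to be so because their groups do not overlap. With the replicate number as a block, 3865 genes and 0 adenylyl cyclases were called (Adcy9 at a limma adjusted p of 0.096). Deviations from the group means correlated at -0.206, -0.089 and 0.028 between same-numbered libraries. Between libraries of different number they correlated at -0.158 to 0.199. With 3 libraries per group, these values cannot tell whether equal numbers mark a pair or a batch. Adcy3 and Adcy4 could not be fitted at a mean of at least 5 FPKM. Without counts, the depth behind the 5 members under 1 FPKM is unknown, and with no filter on low values none of them passed (adjusted p from 0.078 to 0.31).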

Other observations

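The guanylyl cyclases, which make cyclic GMP by a related reaction, and the soluble adenylyl cyclase were listed beside the membrane enzymes. Of 12 genes, 5 had a mean of at least 1 FPKM, of which 1 rose in KO and 0 fell by limma, beside 20.3% and 19.6% of all tested rows. Gucy1a3, a subunit of the nitric oxide receptor, was at 0.997, 0.992 and 0.947 FPKM in WT and 1.94, 2.01 and 1.65 in KO (log2 difference 0.53, limma adjusted p = 0.0066). Each KO library lay above WT. All WT libraries were under 1 FPKM, so the gene passed the filter on its mean over all libraries only through KO. The Gucy1a3 call ended with equal sums outside the acinar list (0.44, or 0.61 relative to the median of all genes, limma adjusted p = 0.076). Npr1, a receptor of natriuretic peptides with a cyclase domain, was at 7.57, 6.58 and 6.6 FPKM in WT and 6.0, 5.93 and 5.32 in KO (log2 difference -0.23, limma adjusted p = 0.054) and did not pass, though it did without KO replicate 1 (-0.26, adjusted p = 0.048) and with quantile normalization (-0.27, adjusted p = 0.037).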
